A study of Mus musculus with 12 samples.

Results

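The genes described here encode the respiratory chain and the ATP synthase of the inner mitochondrial membrane. They were chosen by name from the deposited expression table: symbols that begin with Nduf followed by a, b, c, s or v, with Uqcr, Cox4 to Cox8, Atp5, mt-Nd, mt-Co or mt-Atp, together with Cyc1, Cycs and mt-Cytb, and without 4 names that carry -ps. The rule took 103 of 47069 rows. Of these, 90 are nuclear genes and 13 are encoded in the mitochondrial genome. By function, complex I has 36 nuclear and 7 mitochondrial genes, complex III 9 and 1, complex IV 19 and 3, and the ATP synthase 15 and 2. Cycs encodes cytochrome c, and a further 10 nuclear genes encode assembly and accessory factors.

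The respiratory chain passes electrons from NADH through complex I, ubiquinone, complex III, cytochrome c and complex IV to oxygen, and pumps protons across the inner membrane on the way. The ATP synthase lets the protons return through a rotating ring of c subunits and uses that rotation to make ATP. Each of these complexes is built from nuclear and mitochondrial gene products, so that both genomes have to be expressed together. In lymphoid precursors, mitochondrial respiration supplies ATP and, with it, the aspartate needed for nucleotide synthesis during cell division.

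RNA was sequenced from 12 libraries of mouse B cell precursors, which had been derived in culture from hematopoietic stem cells and fed with IL7 in supplemented Iscove's medium. The β-catenin group (libraries 244, 255 and 262, titled KO) carried Mb1-Cre and Catnb lox(ex3), alleles through which Cre made in B lineage cells removes the part of β-catenin that marks it for destruction. These cells and the sorted control group (242, 249 and 251, titled WT) were sorted on B220, a surface marker of B lineage cells, and taken to RNA isolation straight away. The inhibitor group and the untreated group were unsorted wildtype precursors of the numbers 242, 249 and 251, kept overnight with or without 40 nM LY2090314, a small molecule inhibitor of the kinase GSK3. Whether the controls carried Mb1-Cre, the age of the mice, and whether libraries of 1 group came from separate animals are not stated in the labels. The p-values therefore cover only the spread among these libraries, which may in part be technical.

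Values are FPKM, fragments scaled for gene length and library depth. The libraries held 31.9 to 49.8 M counted fragments. Of these, 1.57% to 2.18% fell on all rows with names in mt-, which include the rRNA genes mt-Rnr1 and mt-Rnr2. The 103 genes held 2.48% to 3.15%. The cell makeup of the libraries differed. The summed FPKM of 8 B cell precursor markers was 570, 1696 and 1399 in β-catenin libraries 244, 255 and 262, against 4788 to 5099 in the sorted controls. In the unsorted cultures it was 1077 to 1807 with the inhibitor, against 4607 to 6501 in untreated cells. All 7 NK and innate lymphoid markers were higher in each β-catenin library (summed FPKM 701 to 3348) than in any sorted control (18.8 to 41.4). T cell markers summed to 334 to 814 FPKM in the β-catenin libraries, against 45.7 to 58.6 in the sorted controls, with 7 of 8 above every control. Monocyte markers summed to 114 to 335 FPKM against 17 to 30, with 4 of 6 above every control and Csf1r below every one (3.42, 2.19 and 5.52 FPKM in the β-catenin libraries, against 8.57, 7.94 and 8.39 FPKM in the sorted controls). Neutrophil markers summed to 591, 11.4 and 25 FPKM in libraries 244, 255 and 262, against 1.94 to 9.38 in the sorted controls, and mast cell and basophil markers to 22.2 to 167 against 0.938 to 14.5; 3 of 7 and 3 of 5 markers lay above every control. With the inhibitor, T cell markers summed to 251 to 379.6 FPKM, against 107 to 129 in untreated cells, but the list was mixed: Lat, Zap70 and Cd8b1 lay above every untreated library, and the other 5 markers overlapped between the groups. Erythroid markers summed to 0.382 to 2.44 FPKM in every library. Library 244 alone carried both the female transcript Xist and the Y-linked Ddx3y. The libraries numbered 242 had Xist at 205 to 295 FPKM and Ddx3y at 0. All libraries numbered 249, 251, 255 and 262 had Xist at no more than 0.176 FPKM and Ddx3y at 13.6 to 42.4 FPKM. The libraries within each group thus differed in these sex transcripts, and Ndufa1, Ndufb11 and Cox7b lie on the X chromosome. Both unsorted libraries numbered 249 carried myeloid RNA, with neutrophil markers summing to 5838 FPKM with the inhibitor and 6229 FPKM without, against at most 390.2 in any other unsorted library. The part of this cell makeup and of sex in the results below was not tested. In bulk RNA, fewer cells of a type and less RNA per cell cannot be told apart.

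Among the nuclear genes, FPKM was highest for Atp5b, the catalytic β subunit of the ATP synthase (1063 to 1550 FPKM over the 12 libraries), followed by Atp5a1, its α subunit (484 to 706), and the complex IV subunit genes Cox6a1 (425 to 628), Cox8a (369 to 527) and Cox4i1 (355 to 522). Tissue isoforms were low or absent. Cox8c, known from testis, was listed at 0 in all libraries, and Cox4i2, Cox7b2, Cox8b and Ndufa4l2 did not exceed 0.495 FPKM in any library. Cox6a2, the isoform of heart and skeletal muscle, reached 2.22, 0.945 and 3.25 FPKM in the β-catenin libraries and 0.978, 0.53 and 0.46 FPKM in the sorted controls. Its values were 0, 0.232 and 0 FPKM with the inhibitor and 3.37, 0.894 and 0.473 FPKM in untreated cells. These 6 complex IV genes failed the filter of 1 FPKM in 3 libraries in each comparison of a pair of groups, which left 97 of the 103 genes to test: 84 nuclear and all 13 mitochondrial ones.

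The first comparison asked what stabilised β-catenin does to these genes in sorted precursors. Most nuclear genes that changed fell, by small amounts. Of the 84 tested nuclear genes, 25 fell, 2 rose and 57 were not called; of the 13 mitochondrial genes 1 rose and 12 were not called. A call is a Benjamini-Hochberg adjusted p under 0.05 in limma, taken over all 12813 genes tested. Read over all 97 genes, 25.8% fell, where 17.7% of all genes tested fell, and 3.09% rose, where 18.6% of all genes tested rose. The median log2 fold change (log2FC, the difference of mean log2(FPKM + 1), which understates the change of low genes) was -0.20 for the nuclear genes, 0.16 for the mitochondrial genes and -0.02 for all genes tested. These counts moved with scaling and with the libraries used. Centring each library on its median, which shifted the median of all genes by -0.11, gave 43 lower and 0 higher. Leaving out library 244 gave 30 lower (21.4% of all genes tested) and 4 higher (19.6% of all genes tested), whereas leaving out sorted control 251, 242 or 249 left 2, 3 and 8 calls, all lower, and leaving out library 262 left 7. Over the 18 named calls the highest adjusted p of any alternative ran from 0.0406 for Ndufc1 and 0.0546 for Atp5g2 to 0.312 for Atp5b; 17 of the 18 were lost in at least 1 alternative, in each of them without sorted control 251.

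**Figure D1:**
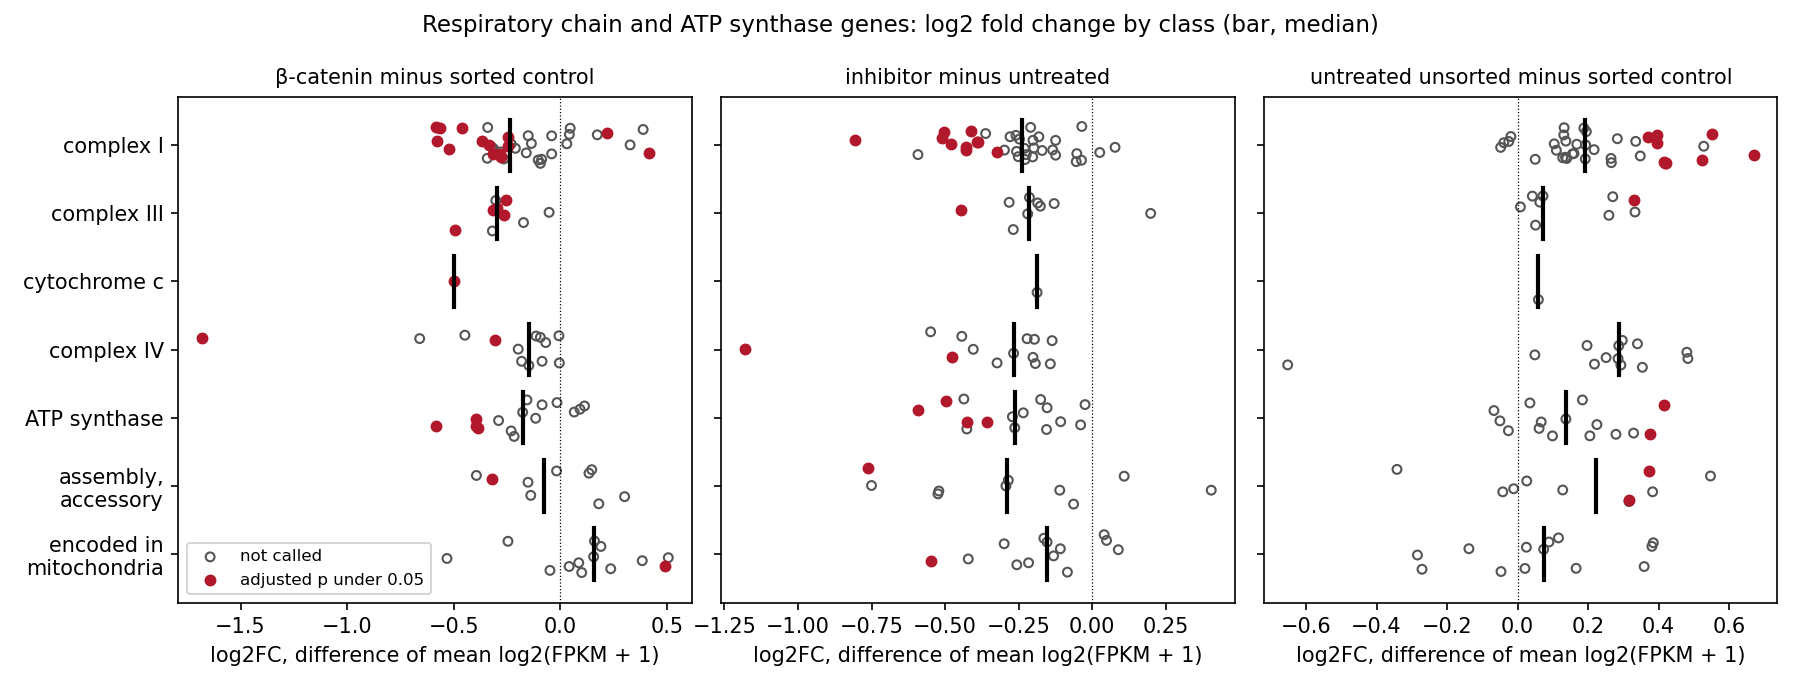
Difference of mean log2(FPKM + 1) for each tested gene (point) by class, in the comparisons of β-catenin with sorted control, inhibitor with untreated and untreated unsorted with sorted control libraries; filled points have an adjusted p under 0.05 and the bar is the median of the class. Most called genes lie left of 0 in the first and second panel and right of 0 in the third, and the mitochondrially encoded genes lie on both sides in the first.

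The sums of FPKM were lower with β-catenin for the nuclear genes and overlapped for the mitochondrial genes. Summed over the 90 nuclear genes, FPKM was 11036, 11222 and 10873 in β-catenin libraries 244, 255 and 262, against 12450, 12422 and 12972 in sorted controls 242, 249 and 251. Over the 13 mitochondrial genes the sum was 16220.0, 14353 and 14738 in the β-catenin libraries, against 13164, 14403 and 15046 in the sorted controls. The nuclear sums did not overlap between the groups and the mitochondrial sums did. Library 244 had the highest mitochondrial sum, and the other β-catenin libraries lay within the range of the controls. The ratio of the nuclear to the mitochondrial sum was 0.68, 0.782 and 0.738 in the β-catenin libraries, below all of 0.946, 0.862 and 0.862 in the sorted controls.

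**Figure D2:**
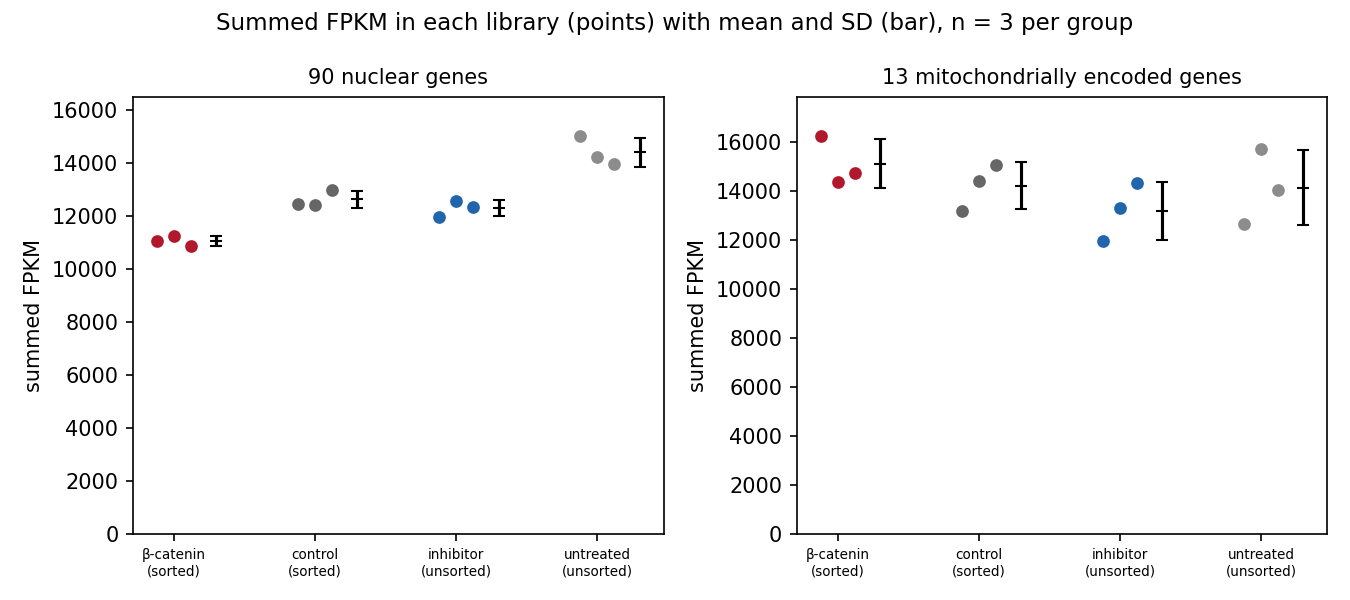
Summed FPKM of the 90 nuclear (left) and the 13 mitochondrially encoded genes (right) in each library (points) with mean and SD (n = 3 per group). The β-catenin libraries (10873 to 11222) lie below the sorted controls (12422 to 12972) in the nuclear sum, and the inhibitor libraries (11963 to 12549) below the untreated ones (13941 to 14999), whereas the mitochondrial sums overlap in both comparisons.

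In complex I, the NADH dehydrogenase, 12 of 36 nuclear genes fell and 2 rose, with a median log2FC of -0.24. Of all genes tested, 17.7% fell and 18.6% rose. The largest falls were those of Ndufc1 and Ndufa12, accessory subunits, and Ndufs8, a core subunit that holds iron-sulfur clusters. Ndufc1 (chr3:51404677-51408988, GRCm38) had 40.1, 43.7 and 38.9 FPKM in the β-catenin libraries, against 57.2, 62.2 and 66.3 FPKM in the sorted controls (log2FC -0.58 ± 0.0894 SE, adjusted p = 0.00662). The groups did not overlap, and this was the one named gene whose call held under all 15 alternatives of this comparison. Ndufs8 (chr19:3908863-3912774) had 54.7, 77.0 and 77.1 FPKM in the β-catenin libraries, against 102, 108 and 99.8 FPKM in the sorted controls (log2FC -0.58 ± 0.147 SE, adjusted p = 0.028). Library 244 was the lowest of all. Ndufa12 fell to 38.8, 36.2 and 26.3 FPKM in the β-catenin libraries, against 48.1, 48.7 and 52.8 FPKM in the sorted controls (log2FC -0.57, adjusted p = 0.0339). Since 36.2% of its transcript is shared with a processed pseudogene, its level is uncertain. Of the core subunits at the NADH end, Ndufs1 had a small fall, with 58.2, 57.5 and 56.1 FPKM in the β-catenin libraries against 66.3, 66.4 and 71.9 FPKM in the sorted controls (log2FC -0.25, adjusted p = 0.0377). Ndufv1, which binds NADH and the flavin, had 99, 92.3 and 101 FPKM against 81.3, 85 and 92.9 FPKM, and the groups overlapped (log2FC 0.17, adjusted p = 0.143).

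The genes that rose in complex I were Ndufa13 and Ndufa3, both accessory subunits. Ndufa13 (also known as GRIM-19; chr8:69894180-69902558) had 71.4, 59.4 and 57.8 FPKM in the β-catenin libraries, against 42.5, 46.8 and 51.1 FPKM in the sorted controls (log2FC 0.42 ± 0.116 SE, adjusted p = 0.0364). Ndufa3 had 122, 129 and 124 FPKM in the β-catenin libraries, against 109, 103 and 111 FPKM in the sorted controls (log2FC 0.22 ± 0.0663 SE, adjusted p = 0.0467). No value overlapped between the groups for either gene. Both calls were lost when libraries were centred on their median (adjusted p = 0.0963 for Ndufa13 and 0.272 for Ndufa3; over all alternatives 0.018 to 0.118 and 0.0337 to 0.272). The sign of neither changed.

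Complex III, which reduces cytochrome c, had 5 falls among its 9 genes and 0 rises, and all 9 were below 0 (median log2FC -0.30). Of all 12813 genes tested, 17.7% fell and 6659 were below 0. Uqcrb, a small subunit near the ubiquinone site, had 88.7, 81.5 and 76.3 FPKM in the β-catenin libraries, against 114, 108 and 128 FPKM in the sorted controls (log2FC -0.50 ± 0.0976 SE, adjusted p = 0.0134); 62.8% of its transcript is shared with a pseudogene. Uqcrfs1, the Rieske iron-sulfur protein, had 83.5, 89.0 and 83.3 FPKM against 103, 105 and 112 FPKM (log2FC -0.32, adjusted p = 0.0191). Uqcrc1, a core protein, had 177, 198 and 196 FPKM against 238, 239 and 227 FPKM (log2FC -0.30, adjusted p = 0.0268). For all of these every β-catenin library was below every sorted control. Cyc1, the cytochrome c1 subunit, missed the threshold (101, 125 and 121 FPKM in the β-catenin libraries, against 139, 149 and 144 FPKM in the sorted controls; log2FC -0.32, adjusted p = 0.0506). Cycs, the mobile carrier between complexes III and IV, fell to 40.8, 48.6 and 46.0 FPKM in the β-catenin libraries, against 64.2, 60.1 and 67.8 FPKM in the sorted controls (log2FC -0.50 ± 0.0951 SE, adjusted p = 0.0124). Here 33.7% of the transcript is shared with copies elsewhere in the genome.

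In complex IV, cytochrome c oxidase, 2 of the 13 tested nuclear genes fell and 0 rose (median log2FC -0.15). That share is near the 17.7% of all genes tested that fell. The larger fall was in Cox7a1, the isoform of heart and skeletal muscle, which was low throughout: 3.39, 4.63 and 1.56 FPKM in the β-catenin libraries, against 18.3, 8.58 and 10.3 FPKM in the sorted controls (log2FC -1.68 ± 0.381 SE, adjusted p = 0.0199). The groups did not overlap, although sorted control 242 was far above the other controls. Its ubiquitous counterpart Cox7a2 was not called (112, 116 and 107 FPKM against 123, 124 and 134 FPKM; log2FC -0.18, adjusted p = 0.099). Cox5a, a subunit on the matrix side, fell to 111, 121 and 126 FPKM in the β-catenin libraries, against 142, 146 and 155 FPKM in the sorted controls (log2FC -0.31, adjusted p = 0.03). Of the other isoform pairs, Cox4i1 (log2FC -0.20, adjusted p = 0.0997), Cox6a1 (-0.09, 0.354), Cox6b1 (-0.07, 0.529), Cox6b2 (-0.66, 0.0785), Cox7b (-0.15, 0.188), Cox8a (-0.01, 0.96) and Ndufa4 (-0.45, 0.0776) were not called.

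The ATP synthase had 4 falls among 15 nuclear genes and 0 rises (median log2FC -0.18), where 17.7% of all genes tested fell. These 4 were genes of the catalytic head and of the rotating ring. Atp5b had 1063, 1243 and 1097 FPKM in the β-catenin libraries, against 1534, 1476 and 1454 FPKM in the sorted controls (log2FC -0.40 ± 0.0949 SE, adjusted p = 0.0236). Atp5a1 had 484, 574 and 549 FPKM against 699, 706 and 703 FPKM (log2FC -0.40 ± 0.0887 SE, adjusted p = 0.0195). The calls of both were lost under quantile normalization (adjusted p = 0.312 for Atp5b and 0.117 for Atp5a1; over all alternatives 0.00975 to 0.312 and 0.00628 to 0.117), which cut the fall of Atp5b to -0.15. Subunit c of the ring is encoded by Atp5g1, Atp5g2 and Atp5g3, whose mature proteins are identical. Atp5g2 (chr15:102662864-102672352) had 252, 249.7 and 258 FPKM in the β-catenin libraries, against 338, 317 and 339.8 FPKM in the sorted controls (log2FC -0.38 ± 0.0673 SE, adjusted p = 0.0095). Atp5g1 had 17.3, 27.5 and 21.5 FPKM against 32.4, 33.1 and 33.5 FPKM (log2FC -0.58, adjusted p = 0.0386). Atp5g3 lay below the controls in every library but was not called (333, 343 and 331 FPKM against 367, 382 and 390.0 FPKM; log2FC -0.18, adjusted p = 0.0826). A pseudogene shares 11.1% of the Atp5g1 transcript and another 16.9% of that of Atp5g2. Of the 10 assembly and accessory genes, 1 fell: Cox7a2l, which joins complexes III and IV into supercomplexes, had 157, 162 and 172 FPKM in the β-catenin libraries against 213, 196 and 203 FPKM in the sorted controls (log2FC -0.32, adjusted p = 0.0201).

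**Figure D3:**
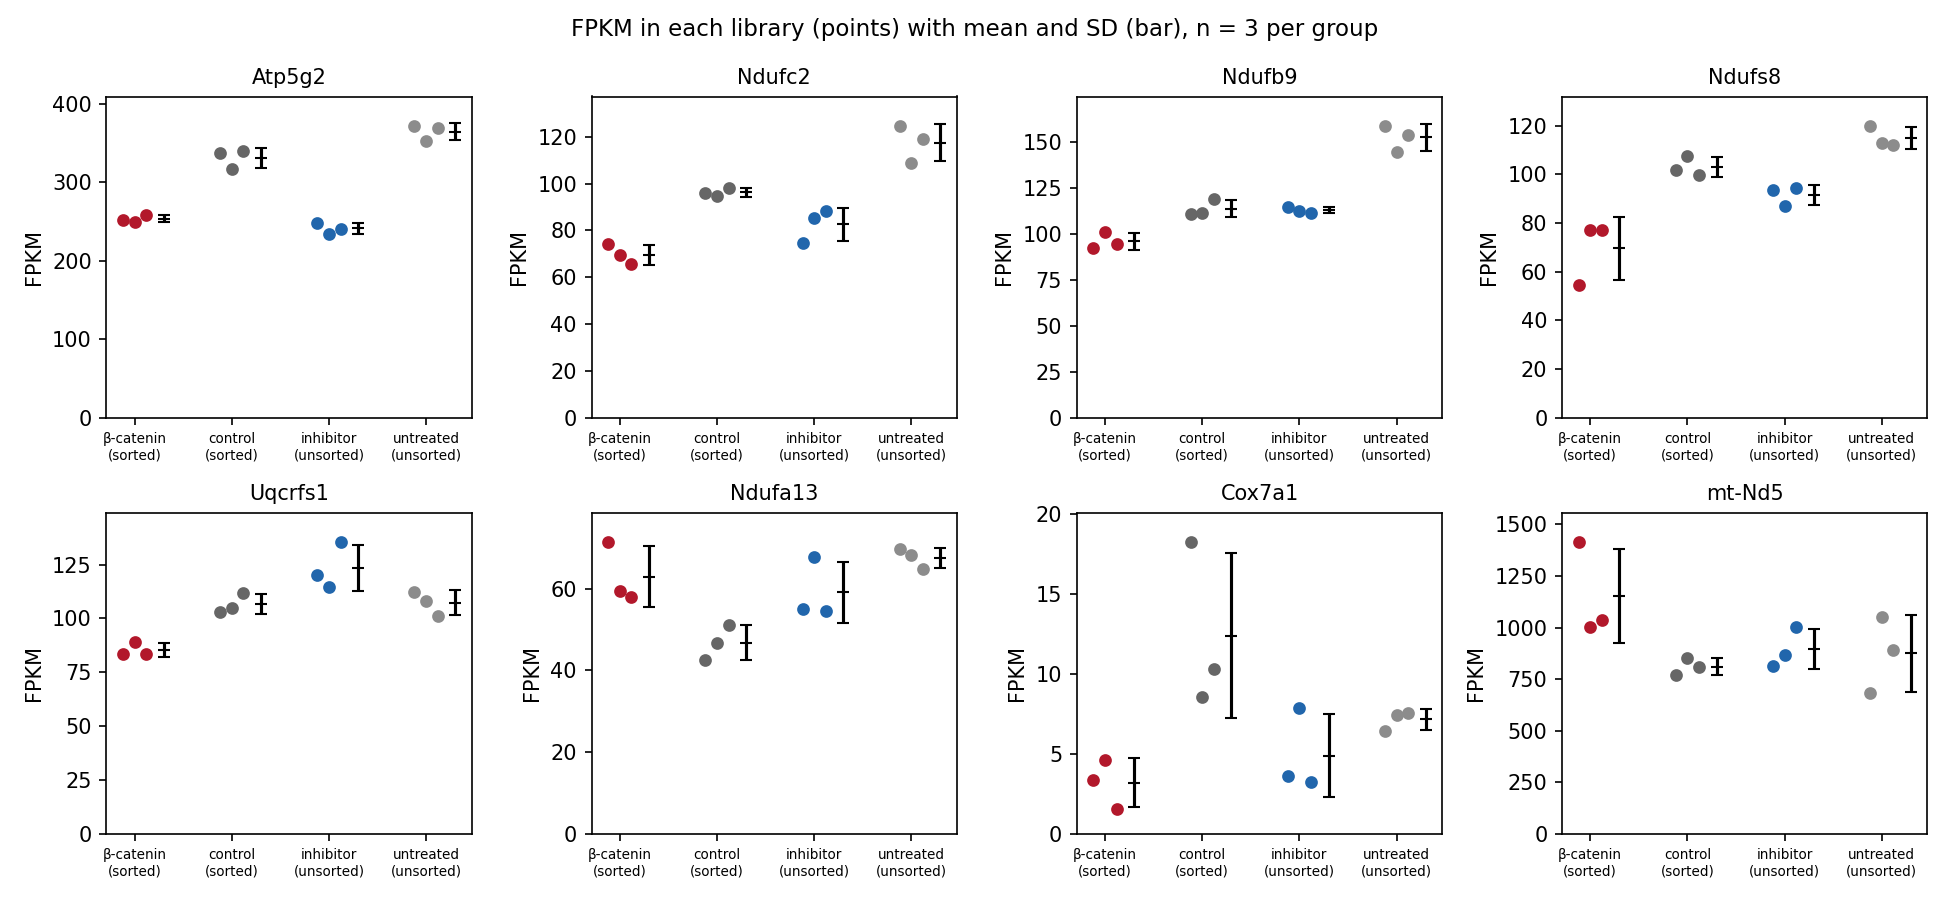
FPKM of 8 genes in each library (points) with mean and SD (n = 3 per group), from axes that start at 0. Atp5g2, Ndufc2, Ndufb9 and Ndufs8 are lower in the β-catenin than in the sorted control libraries and lower with the inhibitor than without; Uqcrfs1, Ndufa13, Cox7a1 and mt-Nd5 show other patterns.

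The mitochondrially encoded genes need a word on what their FPKM holds. A nearly identical stretch of mitochondrial DNA lies in nuclear chromosome 1 (pseudogenes between chr1:24611535-24616197, GRCm38), and it covers at least 99% of the transcripts of mt-Co2, mt-Atp6, mt-Co3, mt-Nd3 and mt-Nd4l, 63.6% of mt-Nd4 and 31.3% of mt-Co1. The 5 fully covered genes had 5.93 to 99 FPKM, the 5 genes without an annotated copy (mt-Nd1, mt-Nd2, mt-Nd5, mt-Nd6 and mt-Cytb) 506 to 3252 FPKM. Only annotated transcripts were searched. For mt-Atp8 none was found, but it lies between the covered genes mt-Co2 and mt-Atp6. Whether the nuclear stretch also holds mt-Atp8 was not tested, so its level is uncertain too. How the authors' counting assigned fragments that match both places is not given in the sources used here, so the levels of the covered genes are uncertain, and the part of the copies in those levels was not tested. The start of mt-Nd3 and of its copy Gm28438 show how little separates them. In capitals is the base that differs, T3C, counted from 1 at the start of mt-Nd3, the only mismatch in 345 aligned bases; both stretches are shown 5′ to 3′ in GRCm38, mt-Nd3 at chrM:9459-9519 on the plus strand and Gm28438 at chr1:24613059-24613119 on the minus strand.
mt-Nd3: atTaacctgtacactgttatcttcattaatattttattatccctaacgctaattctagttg
Gm28438: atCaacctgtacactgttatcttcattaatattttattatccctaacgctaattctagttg

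**Figure D4:**
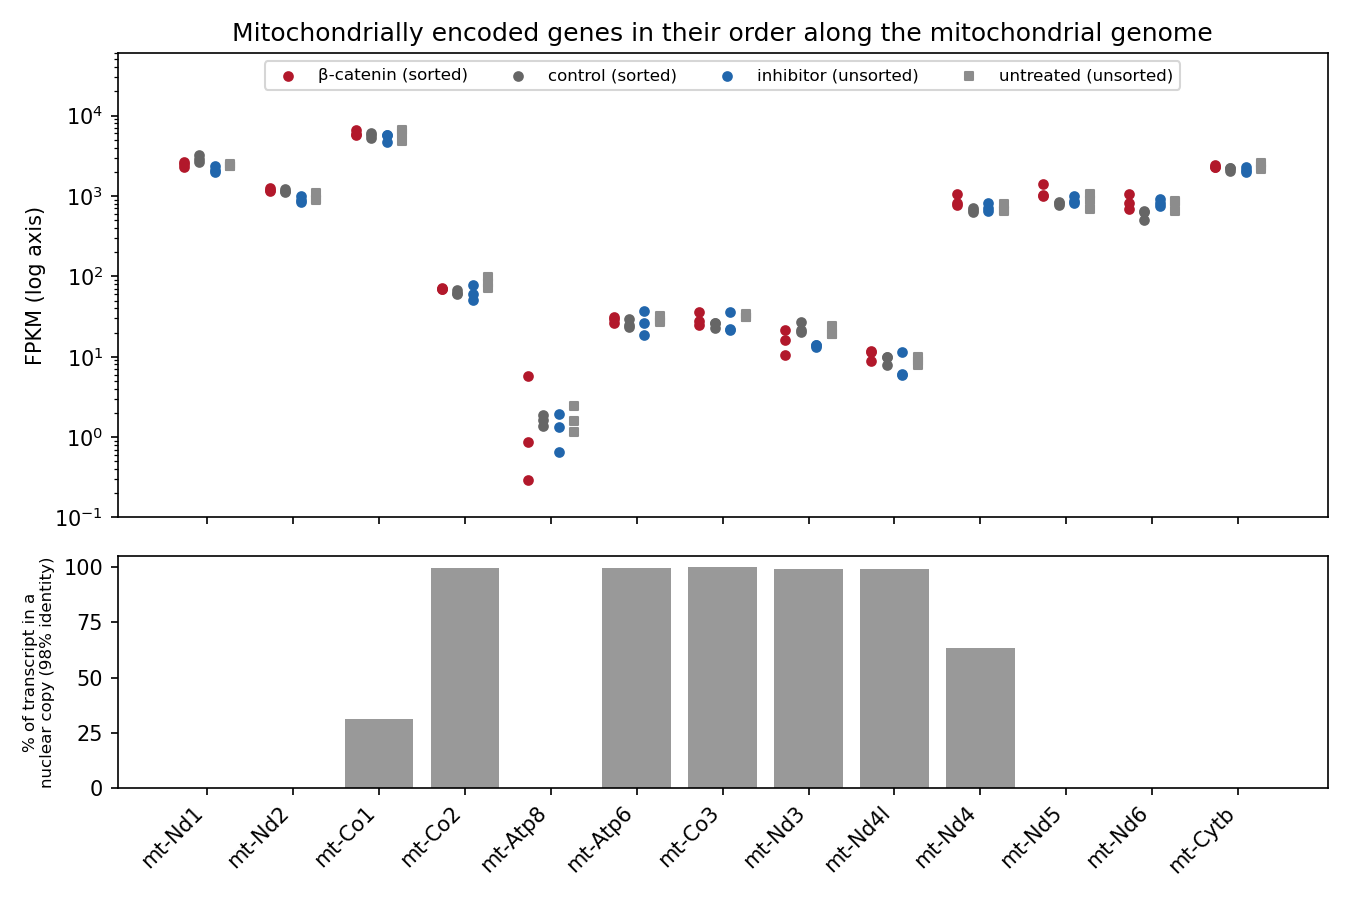
FPKM (log axis) of the 13 mitochondrially encoded genes in each library, in their order along the mitochondrial genome (top), and the share of each transcript found in a nuclear copy at 98% identity or more (bottom). The 5 genes with at least 99% in a copy lie at 5.93 to 99 FPKM, and mt-Atp8, between mt-Co2 and mt-Atp6, is lower still.

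With β-catenin 6154 of all 12813 genes tested were above 0, and of the 13 mitochondrial genes 10 were. Of these mt-Nd5, a proton-pumping subunit of complex I, rose in the β-catenin libraries to 1415, 1005 and 1035 FPKM, against 771, 851 and 808 FPKM in the sorted controls (log2FC 0.49 ± 0.15 SE, adjusted p = 0.0469). The groups did not overlap and library 244 was the highest; without it mt-Nd5 was still called. With median centring it was not (adjusted p = 0.103; 0.00764 to 0.14 over all alternatives). Its neighbours mt-Nd4 (1043, 773 and 813 FPKM against 633, 667 and 699 FPKM; log2FC 0.38, adjusted p = 0.0654) and mt-Nd6 (1057, 696 and 806 FPKM against 506, 652 and 628 FPKM; log2FC 0.51, adjusted p = 0.0751) were above every control without being called. The gene mt-Nd6 (chrM:13552-14070, minus strand) overlaps only the end of mt-Nd5 (chrM:11742-13565, plus strand). Fragments within that overlap cannot be told apart if counting ignored strand, which the sources used here do not say. The gene mt-Nd4 (chrM:10167-11544) overlaps only the end of mt-Nd4l (chrM:9877-10173). Both lie on the plus strand, so strand does not separate fragments within that overlap. The remaining genes were not called with all libraries. Among them mt-Nd1 lay below every control, mt-Co2 and mt-Cytb lay above every control, and the others overlapped. Their log2FC was -0.25 for mt-Nd1, 0.04 for mt-Nd2, -0.53 for mt-Nd3, 0.19 for mt-Nd4l, 0.10 for mt-Cytb, 0.09 for mt-Co1, 0.16 for mt-Co2, 0.24 for mt-Co3 and 0.16 for mt-Atp6. For mt-Atp8 it was -0.05, at 5.73, 0.295 and 0.879 FPKM in the β-catenin libraries and 1.88, 1.65 and 1.38 FPKM in the sorted controls. Library 244 was far above the others for mt-Atp8. Without it, mt-Atp8 (log2FC -0.75, adjusted p = 0.0412) and mt-Nd3 (-0.75, 0.027) were called lower and mt-Nd4 (0.25, 0.049) was called higher. Outside these genes, the mitochondrial rRNA gene mt-Rnr2 had 285, 249 and 211 FPKM in the β-catenin libraries, against 330, 359 and 370 FPKM in the sorted controls. Its values did not overlap between the groups, whereas those of the rRNA gene mt-Rnr1 did.

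The second comparison asked what overnight GSK3 inhibition does to the same genes in unsorted wildtype cells. All genes called were lower with the inhibitor: 18 of 84 nuclear genes and 1 of 13 mitochondrial genes fell, and 0 rose. Read over all 97 genes, 19.6% fell, where 9.60% of all 12685 genes tested fell; 0% rose, where 8.47% of all genes tested rose. In limma 42.3% of the 97 genes (41) and 32.1% of all genes tested had an unadjusted p under 0.05. The median log2FC was -0.24 for nuclear genes, -0.15 for mitochondrial genes and -0.03 for all genes tested. By class, 10 of 36 complex I genes, 1 of 9 complex III genes, 2 of 13 complex IV genes, 4 of 15 ATP synthase genes and 1 of 10 assembly genes fell. The summed nuclear FPKM was 11963, 12549 and 12341 in inhibitor libraries 242, 249 and 251, against 14999, 14221 and 13941 in the untreated libraries of the same numbers, without overlap.

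Since the inhibitor and untreated libraries share the numbers 242, 249 and 251, the number was also fitted as a block. With this block 25 of the 97 genes fell, where 16.0% of all genes tested fell, and 1 rose, where 14.1% of all genes tested rose. The 19 falls were all kept, and Atp5k, Atp5l, Cox5a, Cox7c, Ndufaf2 and Ndufb2 were added. The gene that rose with the block was Ndufaf1, an assembly factor of complex I, at 21.2, 21.7 and 21.9 FPKM with the inhibitor, against 15, 15.3 and 18 FPKM in untreated cells (log2FC 0.41, adjusted p = 0.0556 without the block). Without both libraries numbered 249, which carried the myeloid RNA, 19 genes fell, where 10.7% of all genes tested fell. These are not the same 19 genes. Atp5e, Ndufs8, Ndufv2 and mt-Nd3 were no longer called, and Atp5l, Cox6c, Cox7a1 and Cox7c were added. Leaving out single libraries gave 2 to 17 falls, with 2 left without inhibitor 242, untreated 242 or untreated 251, 4 without inhibitor 251 and 10 without untreated 249.

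Atp5g2 and Cox6b2 were the named genes whose falls held under all 17 alternatives. Atp5g2 had 249, 234 and 241 FPKM with the inhibitor, against 372, 352 and 369 FPKM in untreated cells (log2FC -0.59 ± 0.0779 SE, adjusted p = 0.004). Its ring partners were not called, with Atp5g1 at 26.7, 29.3 and 24.9 FPKM against 36.8, 35.2 and 24.9 FPKM (log2FC -0.23, adjusted p = 0.396) and Atp5g3 at 305, 314 and 349 FPKM against 431, 397 and 345 FPKM (log2FC -0.27, adjusted p = 0.159). For Atp5g2 every inhibitor library was below every untreated one, whereas Atp5g1 and Atp5g3 overlapped between the groups. Other falls in the synthase were in its stalk and membrane parts. Atp5j2, subunit f, had 133, 156 and 143 FPKM with the inhibitor, against 208, 186 and 218 FPKM in untreated cells (log2FC -0.50 ± 0.102 SE, adjusted p = 0.0202). Atp5j, coupling factor 6, had 184, 207 and 201 FPKM against 285, 253 and 259 FPKM (log2FC -0.43, adjusted p = 0.023), and Atp5e, the small ε subunit, 167, 165 and 152 FPKM against 213, 206 and 201 FPKM (log2FC -0.36, adjusted p = 0.0278). The head subunits Atp5b (1412, 1309.6 and 1352 FPKM against 1550.1, 1497 and 1344 FPKM; log2FC -0.11, adjusted p = 0.553) and Atp5a1 (584, 586 and 639 FPKM against 696, 691 and 628 FPKM; log2FC -0.15, adjusted p = 0.318) overlapped between the groups and were not called.

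In complex I, the largest falls were in the accessory subunits Ndufa12, Ndufb4 and Ndufc2. Ndufa12 had 46.0, 34.3 and 43.3 FPKM with the inhibitor, against 60.7, 94.5 and 65.8 FPKM in untreated cells (log2FC -0.81 ± 0.196 SE, adjusted p = 0.0354), and the untreated library 249 stood far above the rest. Ndufb4 had 54.2, 46.8 and 50.2 FPKM against 81.7, 67.2 and 68.3 FPKM (log2FC -0.51 ± 0.112 SE, adjusted p = 0.025), with 40.2% of its transcript identical to the pseudogene Ndufb4c. Ndufc2 had 74.6, 85.2 and 88.1 FPKM against 125, 109 and 119 FPKM (log2FC -0.50 ± 0.102 SE, adjusted p = 0.0189). The core genes Ndufs1 (log2FC -0.28, adjusted p = 0.0643) and Ndufv1 (log2FC 0.03, adjusted p = 0.892) were not called. Ndufaf5, an assembly factor that modifies a core subunit, had 6.60, 7.88 and 8.36 FPKM with the inhibitor, against 16, 12.9 and 12 FPKM in untreated cells (log2FC -0.76 ± 0.163 SE, adjusted p = 0.023). Ndufa12, Ndufb4, Ndufc2 and Ndufaf5 did not overlap between the groups.

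Complex III fell in Uqcrb, with 82.7, 94.7 and 91.0 FPKM with the inhibitor, against 129, 122 and 115 FPKM in untreated cells (log2FC -0.45 ± 0.0924 SE, adjusted p = 0.0205). Uqcrc1 (log2FC -0.21, adjusted p = 0.127), Cyc1 (-0.18, 0.254) and Cycs (-0.19, 0.199) were not called. In complex IV, Cox6b2, the testis isoform of a subunit that faces the intermembrane space, had 3.69, 3.27 and 3.78 FPKM with the inhibitor, against 10.3, 8.04 and 9.90 FPKM in untreated cells (log2FC -1.18 ± 0.16 SE, adjusted p = 0.00457). Its ubiquitous isoform Cox6b1, at 239 to 252 FPKM with the inhibitor and 270.2 to 289.6 FPKM without, was not called (log2FC -0.20, adjusted p = 0.139). Cox7b had 174, 179.9 and 155 FPKM with the inhibitor, against 241, 220.2 and 248 FPKM in untreated cells (log2FC -0.48 ± 0.0961 SE, adjusted p = 0.019). Cox4i1 (log2FC -0.19, adjusted p = 0.303), Cox5a (-0.40, 0.0783), Cox6a1 (-0.20, 0.204), Cox7a1 (-0.55, 0.269), Cox7a2 (-0.27, 0.063), Cox8a (-0.14, 0.381), Ndufa4 (-0.14, 0.455) and the supercomplex gene Cox7a2l (-0.11, 0.428) were not called. Among the mitochondrial genes mt-Nd3 fell to 14.1, 13.4 and 13.9 FPKM with the inhibitor, against 19.1, 19.0 and 24.1 FPKM in untreated cells (log2FC -0.55 ± 0.132 SE, adjusted p = 0.0341). Its value includes the uncertainty of the nuclear copy shown above, and 12 of 17 alternatives lost the call (adjusted p 0.019 to 0.143). The log2FC of the other mitochondrial genes ran from -0.42 for mt-Co2 to 0.09 for mt-Nd6. Outside these genes, the rRNA gene mt-Rnr2 had 164, 220 and 190 FPKM with the inhibitor, against 276, 338 and 309 FPKM in untreated cells. The rRNA gene mt-Rnr1 had 144, 260 and 251 FPKM against 309, 364 and 355 FPKM.

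Both comparisons have 9 lower genes in common: Atp5g2, Ndufa12, Ndufb4, Ndufb9, Ndufc1, Ndufc2, Ndufs8, Ndufv2 and Uqcrb. They are 36% of the 25 genes that fell with β-catenin and 47.4% of the 19 that fell with the inhibitor. Over all genes tested in both comparisons, 645 were lower in both, which is 30% of the genes lower with β-catenin and 54.2% of those lower with the inhibitor, so that the shares of these genes lie near those of all genes. Of the 9 genes, 7 are complex I genes. Complex I holds 36 of the 84 nuclear genes tested, with 12 of the 25 falls with β-catenin and 10 of the 19 with the inhibitor. Ndufb9 had 92.1, 101 and 94.6 FPKM in the β-catenin libraries against 111, 111 and 119 FPKM in the sorted controls, and 115, 113 and 111 FPKM with the inhibitor against 159, 145 and 154 FPKM in untreated cells. Ndufc2 had 74.1, 69.3 and 65.6 FPKM in the β-catenin libraries against 96.1, 94.5 and 98.3 FPKM in the sorted controls. Neither gene overlapped between the groups in either comparison. Without library 244 Ndufb9 was not called with β-catenin (adjusted p = 0.0578), and without both unsorted libraries numbered 249 Ndufs8 and Ndufv2 were not called with the inhibitor; 6 of the 9 genes were lower in both comparisons with all of these libraries left out.

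**Figure D5:**
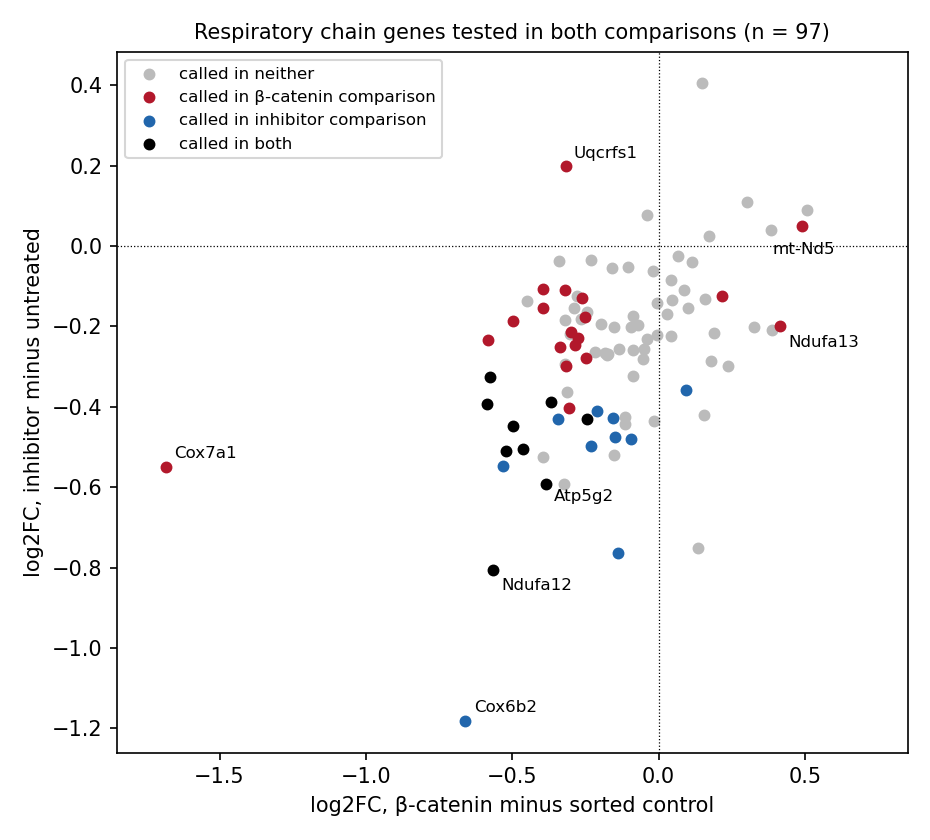
Log2 fold change of each of the 97 tested genes with β-catenin (x axis) and with the inhibitor (y axis), coloured by the comparison in which it passed the threshold. The 9 genes called in both (black) lie below 0 on both axes, and Uqcrfs1 lies below 0 on the x axis and above 0 on the y axis.

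The effects themselves were compared in a model of all 12 libraries. Of 98 genes tested, 1 had a higher and 1 a lower effect of β-catenin than of the inhibitor, where 9.12% of all 13861 genes tested were called. Uqcrfs1, lower with β-catenin, had 120.2, 114 and 135 FPKM with the inhibitor against 112, 108 and 101 FPKM in untreated cells (log2FC 0.20, adjusted p = 0.217), so that the effects differed by -0.52 ± 0.114 SE on the log2 scale (adjusted p = 0.0231). Ndufa13, higher with β-catenin, had 55.0, 67.7 and 54.5 FPKM with the inhibitor against 69.6, 68.2 and 64.9 FPKM in untreated cells (log2FC -0.20, adjusted p = 0.277), a difference of 0.61 ± 0.161 SE (adjusted p = 0.0414). For the remaining genes the adjusted p was over 0.05, which does not show that both effects are alike. Leaving out single libraries changed the number of such genes to between 0 and 6.

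To show the promoters behind the shared falls, short letter motifs of known regulators of respiratory genes were searched on both strands of the RefSeq promoters (250 bases before to 50 after the start, GRCm38.p6), which matched 71 of the 103 genes. The NRF1 letters GCGCATGCG stood in 15.5% of these genes, against 1.95% of all 27025 genes, and the YY1 letters AAGATGGCG in 9.9% against 1.64%. The ETS letters CCGGAAG stood in 21.1% against 9.93%. CCAAT (43.7% against 41.06%) and the E-box CACGTG (7.0% against 8.09%) stood at shares near those of all genes, and the TCF/LEF letters CTTTGATC stood in 0 of the 71, against 1.09% of all genes. A match is a description of letters and not a binding site. Of the 9 shared genes, 7 have an entry. Atp5g2 holds the NRF1 letters, Ndufs8 the ETS and CCAAT letters and Ndufc1 the YY1 letters. Ndufb4 and Ndufc2 hold only CCAAT, and Ndufa12 and Ndufv2 hold none of the letters searched. Whether any of these motifs has a part in the falls was not tested. Atp5g2 and Ndufs8 are shown from 120 bases before to 30 bases after the start, 5′ to 3′ on the gene's own strand, Atp5g2 at chr15:102671018-102671167 and Ndufs8 at chr19:3912745-3912894, both on the minus strand of GRCm38.p6. Capitals mark the matches, which are the NRF1 letters on both strands of 1 palindrome in Atp5g2, and 3 CCAAT and 1 ETS match (read on the other strand) in Ndufs8.
Atp5g2: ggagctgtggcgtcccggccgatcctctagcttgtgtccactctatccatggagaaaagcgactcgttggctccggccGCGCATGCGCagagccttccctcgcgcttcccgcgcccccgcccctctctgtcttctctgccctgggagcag
Ndufs8: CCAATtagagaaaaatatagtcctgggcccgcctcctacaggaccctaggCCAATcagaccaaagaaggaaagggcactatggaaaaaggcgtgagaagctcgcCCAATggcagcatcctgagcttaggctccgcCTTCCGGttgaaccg

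The third comparison set the untreated unsorted cells against the sorted controls, wildtype cells in both cases, which differ in sorting and in the overnight culture, and these cannot be told apart. It shares its libraries with both other comparisons, so its values are given side by side and support neither. Of the 97 genes, 14 were higher (14.4%, where 4.29% of all 12513 genes tested were higher) and 0 lower (where 4.01% of all genes tested were lower); in limma 46.4% of the 97 (45) and 29% of all genes tested had an unadjusted p under 0.05. All 14 are nuclear, and 9 of them belong to complex I, which holds 36 of the 84 nuclear genes tested. The median log2FC was 0.20 for nuclear, 0.07 for mitochondrial and -0.01 for all genes tested; without untreated library 249 the mitochondrial median was -0.05. Leaving out any 1 sorted control left 0 calls, and leaving out untreated library 251 or 242 left 1 and 6. None of the 8 named calls held under all 17 alternatives.

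Ndufa6, a complex I subunit of the LYR family, had 160.2, 151 and 188 FPKM in untreated unsorted cells, against 111, 107 and 120.5 FPKM in sorted controls (log2FC 0.55 ± 0.0996 SE, adjusted p = 0.0266). Ndufb2 had 10.5, 8.27 and 9.91 FPKM against 5.42, 5.98 and 5.43 FPKM (log2FC 0.67 ± 0.131 SE, adjusted p = 0.0308), and Ndufa13 rose as well (log2FC 0.52 ± 0.0883 SE, adjusted p = 0.0235). In these genes the untreated unsorted libraries all lay above the sorted controls. Uqcrh, the hinge protein of complex III (392, 366 and 403 FPKM against 295, 309 and 318 FPKM; log2FC 0.33, adjusted p = 0.0444), Atp5j2 (log2FC 0.42, adjusted p = 0.0337) and Atp5e (log2FC 0.38, adjusted p = 0.0331) rose too. So did Cox7a2l (255, 240.2 and 268 FPKM against 213, 196 and 203 FPKM; log2FC 0.32, adjusted p = 0.0496) and the assembly factor Ndufaf3 (35.1, 36.9 and 32.7 FPKM against 24.9, 28.4 and 26.8 FPKM; log2FC 0.37, adjusted p = 0.0497). Complex IV had 0 calls, although 11 of its 13 tested genes had an unadjusted p under 0.05 (84.6%, against the 29% of all genes tested). Atp5e, Atp5j2 and Ndufb9 were both lower with the inhibitor than in untreated cells and higher in untreated cells than in sorted controls. The same untreated libraries enter both comparisons with opposite sign, which favours such an overlap in advance, so it supports neither. The β-catenin effects of these genes were 0.09 (adjusted p = 0.552), -0.23 (0.0703) and -0.24 (called lower) on the log2 scale.

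These genes are short. The nuclear genes tested have a median length of 736 bases as implied by the FPKM steps, against 1673 for all genes tested. Genes shorter than 1 kb outside the respiratory set had a median log2FC of -0.11 with β-catenin, -0.10 with the inhibitor and 0.08 in untreated unsorted cells against sorted controls. The respiratory genes of that length had -0.16, -0.26 and 0.23. Between 1 and 3 kb, the respiratory genes had a median of -0.18 with β-catenin, -0.18 with the inhibitor and 0.07 in untreated unsorted cells against sorted controls, and the other genes of that length had -0.01 in each. With β-catenin, 18 of 69 short and 7 of 28 longer respiratory genes fell, where 19.7% and 17.5% of the other genes fell. With the inhibitor, 18 of 69 short and 1 of 28 longer ones fell, where 9.53% and 9.75% of the others fell. In untreated unsorted cells, 11 of 69 and 3 of 28 were higher than in sorted controls, where 6.17% and 4.09% of the others were. The part of gene length in these results was not tested.

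Other genes of the pathway, a list of 95 of which 93 are in the table, were read the same way. With β-catenin 25 of 92 tested fell (27.2%, where 17.7% of all genes tested fell) and 4 rose (4.35%, where 18.6% rose). The largest falls were in regulators of respiratory genes: Myc (log2FC -1.03, adjusted p = 0.0372), Gabpb1, which partners the ETS factor GABPA (-0.76, 0.0136), and the PGC-1 related coactivator Pprc1 (-0.68, 0.00557). The largest rises were Tmem126a (1.08, 0.00649), Polg2 (0.73, 0.00597) and Surf1 (0.66, 0.00763), which serve complex I assembly, mitochondrial DNA replication and complex IV assembly. Tfam, which packages mitochondrial DNA and starts its transcription, had 42.6, 41.1 and 41.7 FPKM in the β-catenin libraries, against 57.7, 60.9 and 63.4 FPKM in the sorted controls (log2FC -0.53 ± 0.0719 SE, adjusted p = 0.00501). Both groups were tight and far apart.

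With the inhibitor 11 of 91 tested genes of that list fell (12.1%, near the 9.60% of all genes tested) and 3 rose (3.3%, where 8.47% of all genes tested rose). Myc had 12.6, 12.8 and 9.88 FPKM with the inhibitor, against 88.5, 58.8 and 48.1 FPKM in untreated cells (log2FC -2.33 ± 0.235 SE, adjusted p = 0.00142). Uqcc2, an assembly factor of complex III, had 44.3, 57.9 and 42.9 FPKM against 113, 101 and 97.6 FPKM (log2FC -1.10 ± 0.137 SE, adjusted p = 0.00321), and Sdhaf4, an assembly factor of complex II, fell too (log2FC -0.89, adjusted p = 0.0155). The mitochondrial topoisomerase Top1mt rose to 14.2, 12.2 and 25.5 FPKM with the inhibitor, against 2.46, 1.38 and 1.78 FPKM in untreated cells (log2FC 2.62 ± 0.302 SE, adjusted p = 0.00236). The transcription elongation factor Tefm (0.93, 0.00804) and Tmem126a (0.64, 0.0232) were the other rises. Myc, Uqcc2 and Top1mt did not overlap between the groups. Sdhb, the iron-sulfur subunit of complex II, fell in both comparisons: it had 82.2, 86.8 and 91.4 FPKM in the β-catenin libraries against 110.5, 114 and 113 FPKM in the sorted controls (log2FC -0.37, adjusted p = 0.0119), and 82.7, 90.6 and 83.9 FPKM with the inhibitor against 139.5, 122 and 131 FPKM in untreated cells (log2FC -0.60, adjusted p = 0.00648). The catalytic subunit Sdha was called in neither (0.04, 0.766 and 0.03, 0.837). The difference of both effects was called for Uqcc2 (0.76, 0.0257) and Top1mt (-2.42, 0.00949). Between untreated unsorted cells and sorted controls 6 of 92 rose (6.52%, where 4.29% of all genes tested rose), led by the nuclear receptor Esrra (0.67, 0.00714), mt-Rnr1 (0.62, 0.0277) and Uqcc3 (0.51, 0.0245), and 5 fell (5.43%, where 4.01% of all genes tested fell), led by Pprc1 (-0.88, 0.0224), Tbrg4 (-0.47, 0.0228) and Gabpb1 (-0.46, 0.0404).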

How the data were processed

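The deposited table holds FPKM per Ensembl gene, which the authors computed before deposit. Per the submitters' processing notes, HISAT2, HTSeq and Cufflinks were used with GRCm38 (mm10); roles, versions, strandedness and gene lengths are not given in these sources. Per the labels' protocols, total RNA was isolated with Quick-RNA MicroPrep, and Novogene is named.

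Fragments were recovered from the FPKM steps (25186 genes, 0 failed, 100% of values rebuilt at a relative tolerance of 1e-08). Each comparison was fitted across all genes with limma 3.58.1 (R 4.3.3, lmFit, eBayes with trend, 2-sided) on log2(FPKM + 1), with at least 1 FPKM in at least 3 libraries of the fit and Benjamini-Hochberg adjustment at 0.05. The fit was tested on simulated data. FPKM includes division by depth, so depth enters through the spread of low genes. Numbers 242, 249 and 251 were used to pair the unsorted libraries. Within a number, deviations from group means correlated at 0.609, 0.77 and 0.36 over 12685 genes, all above 0.1. Across numbers, untreated 242 with inhibitor 251 correlated at 0.383 and untreated 251 with inhibitor 242 at 0.253. The other pairs of unlike number ran from -0.657 to -0.386. These values thus do not separate number 242 from 251. No 2 libraries agreed within sampling noise (lowest mean chi-square per gene 16.8). Shared stretches were found with blastn 2.17.0 against GENCODE M21 transcripts (98% identity, 100 bases); all 103 IDs matched M21. Figures and motif counts used Python 3.11.15.

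Members and lists were chosen with earlier results of these data known. Named genes were the up to 3 largest rises and falls among called nuclear genes per class, the mitochondrial genes, the core subunits and the isoform sets; Ndufaf1, Ndufb9, Tfam, Sdhb, Sdha, and genes repeated in a comparison whose rule did not pick them, were chosen after their values were seen. Alternatives were a pseudocount of 0.1, no filter, 5 FPKM, quantile and median scaling, a total without mitochondrial rows, robust eBayes, voom, all 12 libraries, a replicate block and leaving out libraries. Leaving out library 244, alone or with both unsorted libraries numbered 249 in the difference, was added after seeing the data.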

Additional observations from a re-analysis of the deposited data

Results flagged for a closer look

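The effects of β-catenin and of the inhibitor differed in limma for Uqcrfs1 and Ndufa13. For Uqcrfs1 the difference was -0.52 on the log2 scale (adjusted p = 0.0231): all 3 β-catenin libraries were below all 3 sorted controls, and all 3 inhibitor libraries were above all 3 untreated ones. It was called in 17 of 23 alternatives (adjusted p 0.0141 to 0.0678). For Ndufa13 the difference was 0.61 (adjusted p = 0.0414), called in 9 of 23 alternatives (adjusted p 0.0158 to 0.1). It was not called without library 244 (0.52, adjusted p = 0.0635), which held the highest Ndufa13 value of the β-catenin group.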

How the results depend on the processing

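Among the named calls (18 with β-catenin, 11 with the inhibitor, 8 in the third comparison and 2 for the difference) no alternative changed the sign; values of the other calls were not compared gene by gene. With β-catenin, the 28 calls became 17 without the filter and 43 with median centring; leaving out 1 library gave 2 to 34, with 2, 3 and 8 without sorted control 251, 242 and 249, 7 without library 262, 28 without 255 and 34 without 244. With the inhibitor, the 19 calls became 11 without the filter, 10 with median centring and 11 with voom; leaving out 1 library gave 2 to 17, with 4 without inhibitor 251 and 10 without untreated 249. The replicate block gave 26 calls there. In untreated unsorted against sorted control libraries, the 14 calls became 2 without the filter, 7 with median centring and 9 with a total without mitochondrial rows; leaving out 1 library gave 0 to 17, with 6 without untreated 242. There the numbers did not all correlate above 0.1 (0.143, 0.123 and 0.000511), so the libraries share only a number, and the replicate block left 1 call, Ndufa6. For the difference of effects, the 2 calls became 1 without the filter, with quantile normalization, with median centring and with voom, and 3 with the replicate block; 4 were called without the unsorted libraries numbered 249, 6 without these and library 244, and 0 to 6 with 1 library left out. The filter changes how many genes share the adjustment; for the other settings the cause was not tested. Of the named calls, 186 of 270 repeats with β-catenin, 134 of 187 with the inhibitor, 64 of 136 in the third comparison and 26 of 46 for the difference stayed past the threshold. The medians of the nuclear genes ran from -0.32 to -0.17 with β-catenin and from -0.29 to -0.20 with the inhibitor over the alternatives. The medians of the mitochondrial genes ran from 0.04 to 0.20 with β-catenin, from -0.23 to -0.06 with the inhibitor and from -0.05 to 0.15 in the third comparison. For the difference of effects the nuclear median ran from -0.04 to 0.12. No paired analysis was possible between β-catenin and sorted control libraries because they share no number. Low genes such as mt-Atp8, at 0.295 FPKM in 1 library, rest on few fragments, and a gene not called here may still differ.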
